A study of Mus musculus with 24 samples.

Results

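The genes described here are 36 markers of the primitive endoderm and of the basement membrane that this tissue lays down, chosen by symbol from a fixed list, out of 20625 genes in the tables. A row was found for 32 of them, 31 in the table for control cells and 32 in that for paused cells. Afp, Ttr, S100g and Habp2 had no row and were not analysed here, and Aqp8 had one in paused cells only. The cells were mouse E14 embryonic stem cells on gelatin, with no feeder cells named, in medium with serum and leukaemia inhibitory factor. They were wild type or came from the lines Smad2_KO1 and Smad2_KO2, in which Smad2, a transcription factor of Nodal and activin signalling, is knocked out. The labels do not give how the lines were made, or whether each is 1 clone. Each of the 3 genotypes was sampled in 4 libraries under control conditions and in 4 after 12 h in 200 nM INK128, which blocks the kinase mTOR, a state the study calls pausing. This makes 24 poly(A) libraries in 6 groups. Nothing in the labels says that the 4 libraries of a group came from separate cultures, so the p-values may measure technical spread alone.

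The data are 2 tables deposited by the authors, with 1 comparison per condition. Each gene has a mean normalized count, a log2 change with its standard error (SE) and an adjusted p. No value of a single library or of a single knockout line was available for this work. A gene is called when the adjusted p in the authors' deposited table, from DESeq2 over all genes, is under 0.05. The tables name neither the numerator nor the libraries compared, so whether 1 or both knockout lines entered a change is not known. The means are taken to be over all libraries of a comparison, wild type and knockout together. Changes are taken as knockout against wild type, since both of the authors' deposited tables list Smad2 lower, at 78.6% and 64.6% of the other group in control and paused cells. Means of the 2 tables are set side by side without a test, since the tables were normalized separately.

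The primitive endoderm is the epithelium that forms on the surface of the inner cell mass of the blastocyst, beside the epiblast from which embryonic stem cells derive. Its fate is set by the factors Gata6, Sox17, Gata4 and Sox7 downstream of FGF signalling, and its cells express the receptor Pdgfra. Its descendants are the visceral endoderm, which takes up and secretes nutrients and carrier proteins, and the parietal endoderm, which deposits the thick basement membrane of Reichert. A basement membrane is a sheet of laminin trimers and a network of collagen IV, linked by nidogens. Embryonic stem cells make laminin and collagen IV as well, so these genes are not specific to endoderm.

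Of the 31 genes with a row, 20 were called for control cells by the authors' deposited table, 15 higher and 5 lower in the knockout. Over all 19778 genes tested in control cells 41.4% were called, 19.5% higher and 21.9% lower. For paused cells the authors' deposited table called 23 of 32, 18 higher and 5 lower, where 42.6% of all genes were called, 20.5% higher and 22% lower. At least 2-fold rises were found for 8 genes in each of the authors' deposited tables, where such rises made up 4.46% of all genes in control cells and 4.89% in paused cells. The median change of the genes with a row was 0.27 in control cells and 0.54 in paused cells, against 0.00085 and -0.0016 over all genes. The calls of both of the authors' deposited tables pointed the same way for 19 genes, 15 higher and 4 lower, where 30.3% of all genes were so called. How genes were chosen to have a row is not given in the sources used here, so these counts describe the genes with a row and not the list of 36. Over all genes the split depends on the scaling. In the scaling named median change set to 0, shifts of -0.053 in control and -0.047 in paused cells were subtracted from every change. These shifts are not the medians over all genes given above. They are the medians over genes at 5 ppm or more of the summed mean counts, 10795 in control and 11006 in paused cells. After these shifts 23.9% of all genes were higher and 15.9% lower in control cells, against 24.9% higher and 16% lower in paused ones. With equal summed counts these shares were 24.1% and 15.7% in control cells, then 23.7% and 17.4% in paused ones. That scaling was computed as if 4 wild-type and 8 knockout libraries entered each comparison, which is not known. Each statistic was also divided by the middle spread of all statistics, 2.76 in control and 2.80 in paused cells. Only Gata6 and Pdgfra then stayed called in control cells, and only Hnf4a, Srgn, Pdgfra and Cubn in paused cells. Over all genes 1.48% were still called in control cells and 2.25% in paused cells.

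**Figure D1:**
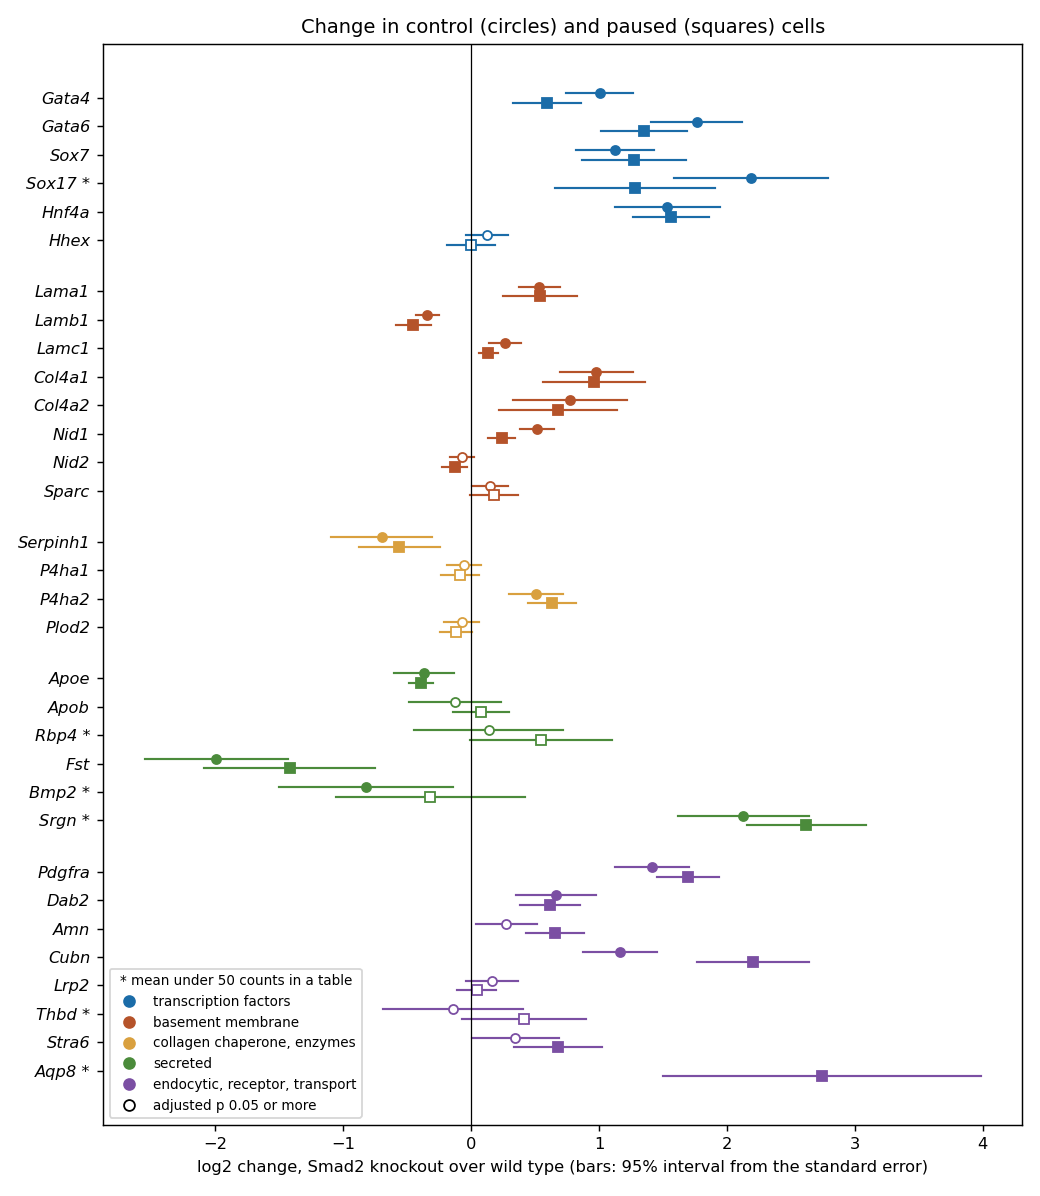
Log2 change, knockout over wild type, of each gene with a row, by role (colours), in control cells (circles) and paused cells (squares), with bars for the 95% interval from the standard error and open symbols for genes not called. Transcription factors other than Hhex lie to the right of 0 in both conditions, while basement membrane genes lie on both sides.

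Of 6 transcription factors of the primitive endoderm, 5 were called higher in each of the authors' deposited tables and none lower, where 19.5% and 20.5% of all genes were higher, with median changes of 1.33 in control and 1.28 in paused cells. Gata6, the factor at the top of the lineage, had means of 82.6 and 115 normalized counts in the 2 conditions. It rose by 1.76 (SE 0.18, adjusted p 1.37e-20) and by 1.35 (SE 0.17, adjusted p 1.34e-13), per the authors' deposited tables, or 3.39-fold and 2.55-fold. Sox17, an endoderm factor of the SOX family, was low, with means of 41.1 and 41.9 normalized counts. It rose by 2.19 in control cells (SE 0.31, adjusted p 2.15e-11) and by 1.28 in paused cells (SE 0.32, adjusted p 2.86e-04), per the authors' deposited tables.

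Gata4, which acts with Gata6, rose by 1.01 in control cells (SE 0.13, adjusted p 1.45e-12) and by 0.59 in paused cells (SE 0.13, adjusted p 5.78e-05), per the authors' deposited tables. Its means were 108 and 158 normalized counts. Sox7, a relative of Sox17 that is kept in parietal endoderm, had means of 122 and 72.2 normalized counts and rose by 1.12 (SE 0.15, adjusted p 1.08e-11) and 1.27 (SE 0.21, adjusted p 1.07e-08). Hnf4a, a nuclear receptor of visceral endoderm and liver, rose by 1.53 (SE 0.21, adjusted p 5.51e-12) and 1.56 (SE 0.15, adjusted p 1.51e-22), per the authors' deposited tables, and its means over both genotypes were 72.3 and 119.6 normalized counts. Its increase was 2.90-fold in control and 2.95-fold in paused cells.

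Hhex, a homeobox factor of endoderm and of the anterior visceral endoderm, was not called. The authors' deposited tables give 0.12 in control cells (95% interval -0.038 to 0.29) and -0.0035 in paused cells (-0.19 to 0.18), at means of 288 and 220 normalized counts. These intervals do not reach the change of any of the other 5 factors in the same condition. Per kb of exon Hhex had the highest level of the 6 factors, 150.1 and 115 normalized counts per kb, against 10.0 to 37.1 for the others in control cells and 10.2 to 43.5 in paused cells.

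The label of embryonic stem cells was checked against markers. The 10 listed stem cell markers, among them Pou5f1, Nanog and Sox2, summed to 5580 ppm of the summed mean counts in control and 4905 in paused cells. The 10 primitive endoderm markers summed to 29.2 and 49.6 ppm. In bulk RNA, more cells of a type and more RNA per cell cannot be told apart. Other lineages moved as well. Of 10 trophoblast markers 8 had a row in each of the authors' deposited tables, of which 5 were called higher (Gata3, Krt7, Ascl2, Hand1 and Plac1) and 1 lower (Cdx2) in both conditions, where 19.5% and 20.5% of all genes were higher. Their median changes were 1.32 and 1.14 over the 8. These summed to 169 and 183 ppm, and Prl3d1 and Ctsq had no row. Of 10 fibroblast markers, 4 of 8 with a row were called lower in control cells and 3 of 7 in paused cells, with none higher, where 21.9% and 22% of all genes were lower. They summed to 24.5 and 26.4 ppm, and Lum and Fap had no row. The part of other lineages in the changes given here was not tested.

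Promoter windows, from 250 bases before to 50 after the start, were given by RefSeq on GRCm38.p6 for 24 of the 36 genes, in 33 windows. The windows were searched on both strands for AGATAA or TGATAA, letters that GATA factors bind, for CAGAC, a SMAD element, and for ACGTG, the core of the hypoxia response element. The motifs can overlap each other and were then each counted. GATA letters were in 3 of the 33 windows (9.09%), against 18.6% of the 32851 windows of all genes. The SMAD letters were in 51.5% of the windows against 49.6% of all, and the hypoxia letters in 24.2% against 19.6%. The windows with GATA letters were those of Hnf4a, Dab2 and Stra6. The bases before the start are shown for Hnf4a (chr2:163506607-163506856, plus strand) and Dab2 (chr15:6299539-6299788, plus strand), both of which rose, with the GATA letters in capitals, 52 bases before the start of Hnf4a and 179 before that of Dab2. Each gene has 2 windows, of which 1 holds these letters, and a match is no evidence of binding.
Hnf4a: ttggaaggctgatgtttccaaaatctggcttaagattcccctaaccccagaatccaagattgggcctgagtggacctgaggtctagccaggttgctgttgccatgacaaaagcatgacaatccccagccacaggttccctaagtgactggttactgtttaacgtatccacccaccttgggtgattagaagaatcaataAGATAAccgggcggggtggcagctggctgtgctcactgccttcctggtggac
Dab2: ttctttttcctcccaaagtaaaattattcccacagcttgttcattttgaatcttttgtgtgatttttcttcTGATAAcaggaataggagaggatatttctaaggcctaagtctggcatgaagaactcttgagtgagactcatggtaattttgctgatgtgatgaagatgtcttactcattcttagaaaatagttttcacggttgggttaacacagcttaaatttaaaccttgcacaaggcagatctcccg

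Of the 9 receptors and proteins of endocytosis and transport, 3 of 7 with a row were called higher in control cells and 6 of 8 in paused cells, with none lower in either of the authors' deposited tables. The control count is near the 41.4% of all genes called in either direction, and 42.6% were so called in paused cells. Called higher were 19.5% of all genes in control cells and 20.5% in paused cells. Pdgfra, the receptor for platelet-derived growth factor that marks the lineage from the blastocyst on, rose by 1.41 in control cells (SE 0.15, adjusted p 1.14e-19) and by 1.70 in paused cells (SE 0.12, adjusted p 3.25e-41), per the authors' deposited tables. Ordered by the statistic, it was the 58th strongest rise of 19979 genes in paused cells and the 175th of 19780 in control cells. Its means were 115 and 169 normalized counts.

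Cubn and Amn code for cubilin and amnionless, which form the receptor of visceral endoderm, kidney and gut that takes up vitamin B12 with its carrier. Cubn rose by 1.16 in control cells (SE 0.15, adjusted p 6.69e-14) and by 2.20 in paused cells (SE 0.22, adjusted p 3.4e-21), per the authors' deposited tables, or 2.24-fold and 4.61-fold, at means of 120 and 115 normalized counts. Amn rose by 0.66 in paused cells (SE 0.12, adjusted p 1.28e-07), while the control value of 0.27 was not called in the authors' deposited table (SE 0.12, adjusted p 0.0586) but passed under both other scalings. The level of Amn per kb was above that of Cubn, 73.5 against 10.6 normalized counts per kb in control and 94.2 against 10.2 in paused cells. Lrp2, or megalin, the large partner of cubilin in uptake, was abundant, at 7458 and 8601 normalized counts, and was not called. Its changes in the authors' deposited tables were 0.16 (95% interval -0.042 to 0.37) and 0.042 (-0.11 to 0.19).

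Dab2, an adaptor that links such receptors to clathrin and positions the endoderm layer, rose by 0.66 in control cells (SE 0.16, adjusted p 1.87e-04) and 0.62 in paused cells (SE 0.12, adjusted p 1.76e-06), per the authors' deposited tables. Its means were 543 and 1232 normalized counts. Stra6, the cell surface receptor of retinol-binding protein, rose by 0.68 in paused cells (SE 0.18, adjusted p 4.79e-04). In control cells its 0.35 was not called in the authors' deposited table (SE 0.17, adjusted p 0.0936) and passed with equal summed counts alone. Thbd, or thrombomodulin, a surface protein of parietal endoderm and of vessels, was low and not called, at -0.14 and 0.41 (SE 0.28 and 0.25). The water channel gene Aqp8, with a mean of 9.65 normalized counts in paused cells, rose there by 2.74 in the authors' deposited table (SE 0.63, adjusted p 8.4e-05).

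Basement membrane genes were abundant. Of 8 components, the authors' deposited table for control cells called 5 higher (Lama1, Lamc1, Col4a1, Col4a2 and Nid1) and 1 lower (Lamb1). The same 5 were called higher in paused cells, and Lamb1 and Nid2 lower. Among all genes at 5 ppm or more, 51.6% were called in control and 53% in paused cells. By direction these were 19% higher and 32.6% lower in control cells, and 20.2% higher and 32.8% lower in paused cells. The median changes of the 8 were 0.39 and 0.21, and no change reached 2-fold as deposited. Col4a1 passed 2-fold under other scalings. It was 1.03 in control and 1.01 in paused cells after the shifts of -0.053 and -0.047 named median change set to 0. With equal summed counts it was 1.03 in control cells.

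The 3 chains of laminin-111, the first laminin of the embryo, did not move together. Lama1, the alpha chain, rose by 0.53 in control cells (SE 0.08, adjusted p 1.13e-09) and 0.54 in paused cells (SE 0.15, adjusted p 0.00123), per the authors' deposited tables, or 1.45-fold in both. Lamb1, the beta chain, fell by 0.34 (SE 0.05, adjusted p 4.25e-12) and by 0.45 (SE 0.07, adjusted p 1.14e-09), to 78.8% and 73.0% of the wild type. Lamc1, the gamma chain, rose by 0.27 (SE 0.06, adjusted p 2.21e-04) and 0.13 (SE 0.04, adjusted p 0.00139), per the authors' deposited tables. The 95% intervals of the alpha and beta chains were 0.37 to 0.69 and -0.44 to -0.25 in control cells and did not overlap, nor did they in paused cells, at 0.25 to 0.82 and -0.59 to -0.32. On the scale of normalized counts per kb of exon the order was Lamc1 (2977 and 2909), Lamb1 (1226 and 994) and Lama1 (412 and 496) in control and paused cells. The chain that rose most was thus the one with the lowest level.

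Collagen IV of embryonic basement membranes is a trimer of Col4a1 and Col4a2 chains, and their genes lie head to head. Col4a1 rose by 0.98 in control cells (SE 0.15, adjusted p 4.77e-10) and by 0.96 in paused cells (SE 0.20, adjusted p 1.58e-05), per the authors' deposited tables, or 1.97-fold and 1.95-fold, at means of 4130 and 4042 normalized counts. Col4a2 rose by 0.77 (SE 0.23, adjusted p 0.00272) and 0.68 (SE 0.23, adjusted p 0.0112), per the authors' deposited tables, and its paused change did not pass an adjusted p of 0.01. Per kb the mean of Col4a1 was 2.62 times that of Col4a2 in control cells and 1.85 times in paused cells. In RefSeq on GRCm38.p6 the Col4a1 transcript starts at base 11312826 of chromosome 8 and runs to the left, and the Col4a2 transcript starts at base 11312805 and runs to the right. The starts are 21 bases apart and the 5′ ends overlap, and whether counting used strand is not given in the sources used here. The stretch around both starts (chr8:11312801-11312830) is shown on the strand of each gene, with the 22 bases from one start to the other in capitals, because both genes rose.
Col4a1: ccccTTGGAGACGCCGCCCGCGCACTgccg
Col4a2: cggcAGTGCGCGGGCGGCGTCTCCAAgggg

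The nidogens bridge laminin and collagen IV. Nid1 rose by 0.51 in control cells (SE 0.07, adjusted p 1.73e-12) and 0.24 in paused cells (SE 0.05, adjusted p 3.89e-05), per the authors' deposited tables, at means of 8525 and 9558 normalized counts. Nid2, with a level per kb 2.60 and 2.86 times that of Nid1, was not called in control cells (-0.069, SE 0.05, adjusted p 0.258). It fell by 0.13 in paused cells, per the authors' deposited table (SE 0.05, adjusted p 0.0242), a call that was lost at an adjusted p of 0.01 and under both other scalings. Sparc, a collagen-binding glycoprotein of basement membranes, was among the most abundant of these genes, at 14049 and 10146 normalized counts. Its 0.15 and 0.18 were not called in the authors' deposited tables (SE 0.07 and 0.10, adjusted p 0.082 and 0.132), and the control value passed under both other scalings.

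**Figure D2:**
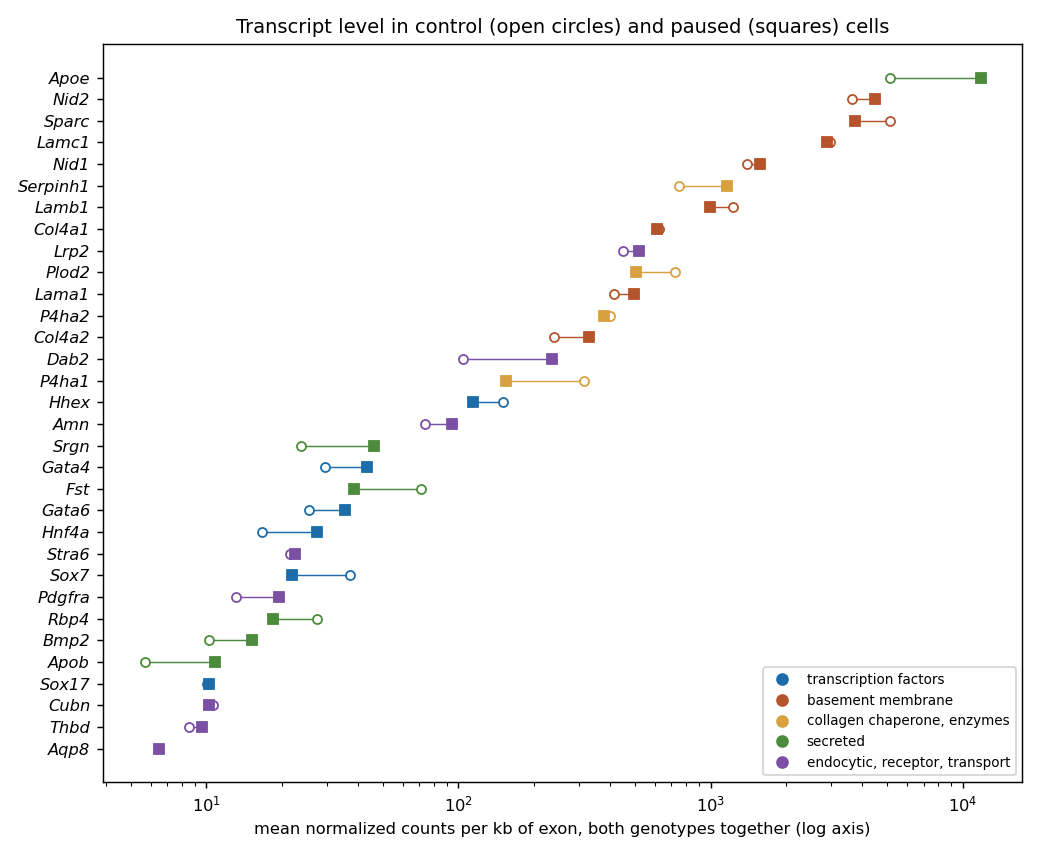
Mean normalized counts per kb of exon, on a log axis, over wild type and knockout together, in control cells (open circles) and paused cells (squares). Apoe, Nid2, Sparc and Lamc1 lie highest, and the transcription factors that rose lie under 50 per kb.

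Of the 4 genes that fold and modify collagen, 1 was called higher and 1 lower in each condition, a count near the 41.4% and 42.6% called over all genes. Serpinh1, the collagen chaperone HSP47 of the endoplasmic reticulum, fell by 0.70 in control cells (SE 0.20, adjusted p 0.00201) and by 0.56 in paused cells (SE 0.16, adjusted p 0.00193), per the authors' deposited tables, to 61.5% and 67.7% of the wild type. P4ha1 and P4ha2 code for alternative catalytic subunits of prolyl 4-hydroxylase, which stabilises the collagen helix. P4ha2 rose by 0.51 (SE 0.11, adjusted p 2.28e-05) and 0.63 (SE 0.10, adjusted p 7.81e-10), per the authors' deposited tables. P4ha1 was not called, at -0.054 (95% interval -0.19 to 0.077) and -0.084 (-0.23 to 0.064). Plod2, a lysyl hydroxylase of collagen, was not called either, at -0.073 and -0.12 (SE 0.07 and 0.06).

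Both prolyl hydroxylase genes hold the hypoxia letters ACGTG, or CACGT on the other strand, before their starts. They are shown for P4ha1 (chr10:59323046-59323295, plus strand) and P4ha2 (chr11:54100674-54100923, plus strand) because P4ha2 was called and P4ha1 was not, with the letters in capitals, 16 and 78 bases before the start.
P4ha1: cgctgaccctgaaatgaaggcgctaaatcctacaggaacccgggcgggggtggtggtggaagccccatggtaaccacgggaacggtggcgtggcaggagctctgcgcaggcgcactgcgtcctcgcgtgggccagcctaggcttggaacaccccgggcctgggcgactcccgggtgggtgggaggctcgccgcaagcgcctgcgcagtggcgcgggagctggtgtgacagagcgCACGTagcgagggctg
P4ha2: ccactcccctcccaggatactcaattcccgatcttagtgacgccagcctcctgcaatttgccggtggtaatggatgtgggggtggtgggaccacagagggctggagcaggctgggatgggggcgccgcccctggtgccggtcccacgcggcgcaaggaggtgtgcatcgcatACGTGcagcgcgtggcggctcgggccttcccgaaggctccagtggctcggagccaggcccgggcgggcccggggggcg

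Of the 9 listed secreted proteins 3 had no row, and of the other 6 1 was called higher and 3 lower in control cells, and 1 higher and 2 lower in paused ones, where 41.4% and 42.6% of all genes were called. Apoe, a lipid carrier that stem cells and visceral endoderm both make, was the highest of all genes described here per kb, at 5175 and 11795 normalized counts per kb. It fell by 0.37 in control cells (SE 0.12, adjusted p 0.00675) and by 0.39 in paused cells (SE 0.05, adjusted p 6.6e-15), per the authors' deposited tables, to 77.5% and 76.3% of the wild type. Apob, the structural protein of secreted lipoproteins, was not called, at -0.13 and 0.079 (SE 0.18 and 0.11), with means of 79.2 and 150.7 normalized counts. Rbp4, the carrier of retinol, was low, at 33.8 and 22.6 normalized counts, and was not called (0.14 and 0.55, SE 0.30 and 0.28).

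Fst and Bmp2 act in activin and BMP signalling. Fst codes for follistatin, which binds and blocks activin, and fell by 1.99 in control cells (SE 0.29, adjusted p 7.13e-11) and by 1.42 in paused cells (SE 0.34, adjusted p 1.75e-04), per the authors' deposited tables. This left 25.1% and 37.3% of the wild-type level, and the means over both genotypes were 201 and 109.1 normalized counts. Bmp2, a ligand of the BMP branch, fell by 0.82 in control cells (SE 0.35, adjusted p 0.0437) at a mean of 36.4 normalized counts, a call that was lost at an adjusted p of 0.01 and under both other scalings. In paused cells its -0.32 was not called in the authors' deposited table (SE 0.38, adjusted p 0.525). Srgn, the core protein of serglycin, a proteoglycan of secretory granules, was the 1 gene of the secreted group called higher. It rose by 2.13 in control cells (SE 0.26, adjusted p 1.48e-14) and by 2.62 in paused cells (SE 0.24, adjusted p 2.66e-26), per the authors' deposited tables, or 4.37-fold and 6.14-fold. It was low in control cells, at 41.8 normalized counts, and had a mean of 81.0 in paused cells.

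Whether the effect of Smad2 loss differed between the conditions was tested as the paused minus the control change. Among the 31 genes with a row in both tables, only Cubn passed, where 1.44% of the 19134 genes tested did. Its difference was 1.04 (SE 0.27, 95% interval 0.52 to 1.56, adjusted p 0.0144), and it was no longer called at an adjusted p of 0.01 or after division of the statistics by their middle spread. The minimum on abundance does not include it. Nid1 had a difference of -0.28 (SE 0.09, adjusted p 0.0722), which was called with that minimum and with equal summed counts. Sox17 (-0.90, 95% interval -1.77 to -0.039), Gata4 (-0.41, -0.78 to -0.041) and Amn (0.38, 0.054 to 0.71) had intervals without 0, but adjusted p-values of 0.356, 0.313 and 0.285. For Col4a1 the interval of the difference was -0.51 to 0.48, and for Lama1 -0.33 to 0.33.

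**Figure D3:**
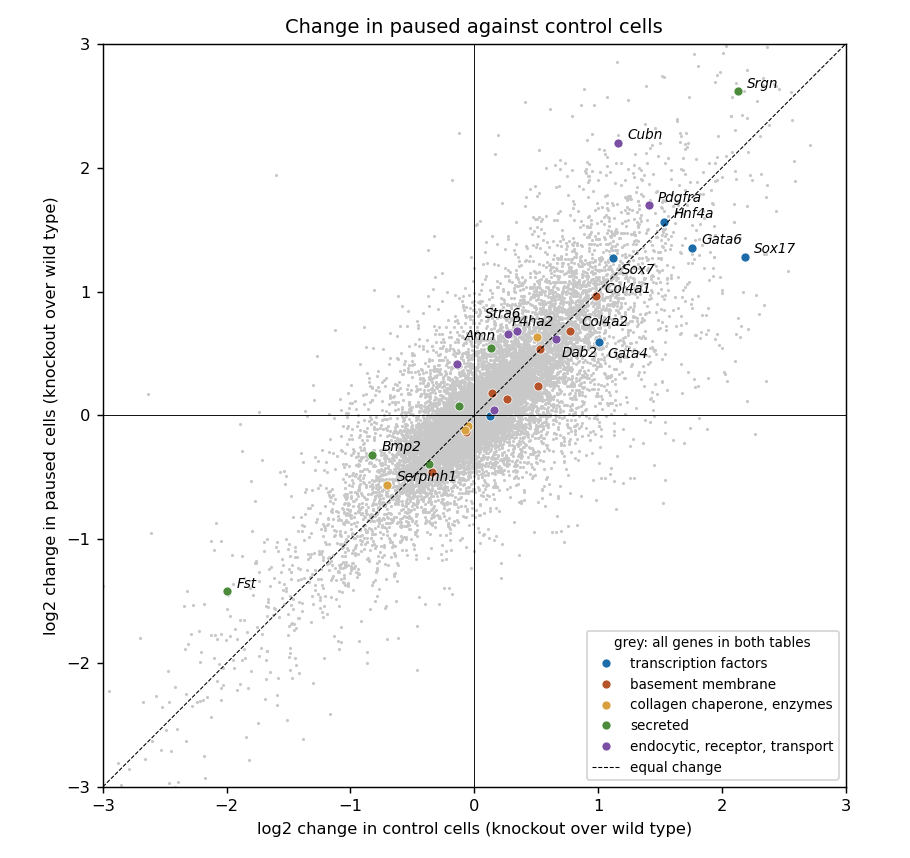
Log2 change in paused cells against that in control cells for all genes in both tables (grey, axes limited to -3 and 3) and for the genes described here (colours by role). The dashed line marks equal change, and Cubn, at 1.16 and 2.20, is the coloured point whose distance from it was called.

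The standard errors of several of these genes were large for their counts. For each gene the standard error was compared with those of the 500 genes nearest in mean count. In control cells 9 of 31 lay above 95% of such genes, and in paused cells 10 of 32. The SE of Col4a2 was 0.23 in both conditions, where the median of similar genes was 0.062 in control and 0.049 in paused cells, and that of Col4a1 was 0.15 and 0.20 against 0.056 and 0.043. Serpinh1 (0.20 and 0.16 against 0.061 and 0.046), Dab2, Fst, Bmp2 and Sox17 were above 95% in both conditions as well. Apoe and Lrp2 were so in control cells alone, and Lama1, Sparc and Aqp8 in paused cells alone. Gata4 and Hhex, in contrast, lay within the range of similar genes, at 21.8% and 10.0% in control cells. Whether the 2 knockout lines or single libraries differ for these genes was not tested, since the tables give no value for a line or a library and do not say which of them were compared.

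**Figure D4:**
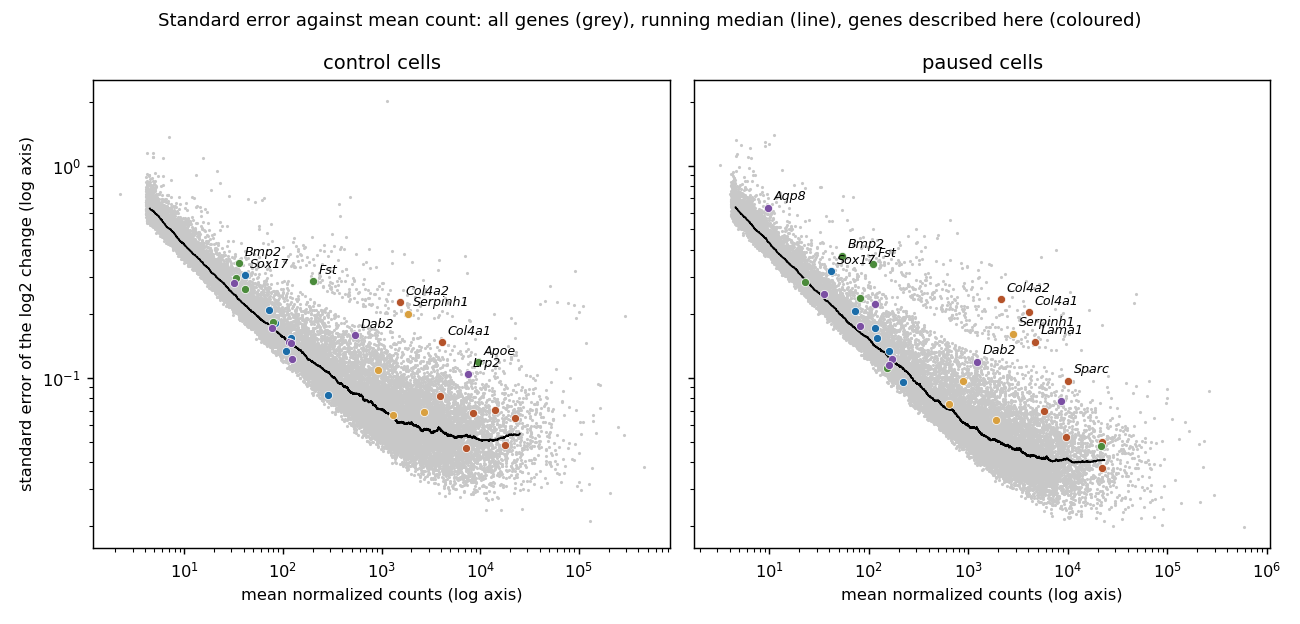
Standard error of the log2 change against mean normalized count, both on log axes, for control cells (left) and paused cells (right), with all genes in grey, their running median as a line and the genes described here in colour. Named genes lie above 95% of the 500 genes nearest in mean count, with Col4a1, Col4a2 and Serpinh1 far above the line in both panels.

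Other genes of the same tissues and structures were read from 4 further lists. Of 22 other basement membrane components, 21 had a row in control cells, of which 3 were called higher and 6 lower, and in paused cells 2 of 22 were higher and 7 lower. The shares called, 42.9% and 40.9%, were near the 41.4% and 42.6% over all genes, so the counts show nothing particular to this list. The medians were -0.052 and -0.060 in the authors' deposited tables. Pxdn, a peroxidase that links collagen IV, fell by 0.43 in control cells (SE 0.15), and Col4a5, another collagen IV chain, fell by 0.78 in paused cells (SE 0.19), per the authors' deposited tables. Col4a5 was called lower in control cells too, at -1.05 (SE 0.29), with a low mean of 33.5 normalized counts. Lama3, a laminin alpha chain of epithelia, rose by 0.58 and 0.48 (SE 0.11 and 0.16), per the authors' deposited tables, and Smoc1 rose by 0.27 in paused cells (SE 0.05). Hspg2, the heparan sulphate proteoglycan perlecan, rose by 0.30 in control cells (SE 0.08) and was not called in paused cells (-0.066), and its change differed between the conditions (-0.37, SE 0.10, adjusted p 0.0292). Lama5, an alpha chain whose level per kb was 3.88 times that of Lama1 in control cells and 4.67 times in paused cells, was not called (-8.8e-04 and 0.11, SE 0.07 and 0.05), and it is named here after its values were seen.

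Of 11 listed receptors for laminin and collagen, 10 had a row, with 5 higher and 5 lower in control cells and 4 higher and 5 lower in paused cells, per the authors' deposited tables. In control cells 10 of 10 were called and in paused cells 9, where the shares over all genes were 41.4% and 42.6%. Ddr1 and Ddr2 are collagen receptor kinases. Ddr2 rose by 1.70 and 1.82 (SE 0.16 and 0.14), while Ddr1 fell by 0.82 and 1.35 (SE 0.09 and 0.16), per the authors' deposited tables. Itga7, an alpha subunit of laminin receptors, rose by 0.56 and 0.62 (SE 0.12 in both), and Itga1, of a collagen receptor, fell by 0.91 and 0.96 (SE 0.15 in both).

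All 18 other collagen-modifying enzymes had a row, and 6 were called higher and 10 lower in control cells, 3 higher and 9 lower in paused cells. These were 88.9% and 66.7% of the list, against 41.4% and 42.6% of all genes. Loxl4, a lysyl oxidase that crosslinks collagen, fell by 2.22 and 1.74 (SE 0.42 and 0.41), and Fkbp10, a collagen chaperone, by 0.84 and 0.81 (SE 0.12 in both), per the authors' deposited tables. P3h1 and Crtap, which act in one complex on procollagen, rose by 0.31 and 0.33 in control cells (SE 0.06 and 0.04). In paused cells P3h1 rose by 0.18 (SE 0.05) and Crtap was not called (0.019), and the change of Crtap differed between the conditions (-0.31, SE 0.07, adjusted p 0.00285).

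Of 28 further genes of extraembryonic endoderm, 22 had a row in each of the authors' deposited tables, with 3 higher and 5 lower in control cells and 4 higher and 5 lower in paused cells, and medians of -0.10 and -0.049. The shares called, 36.4% and 40.9%, were not above the 41.4% and 42.6% over all genes. Apom, an apolipoprotein, rose by 1.33 and 1.70 (SE 0.18 in both), Soat2, a cholesterol esterifying enzyme, by 0.42 in control cells (SE 0.14), and Plat, the plasminogen activator of parietal endoderm, by 0.77 in paused cells (SE 0.20). Soat2 was called higher in paused cells too, at 1.04 (SE 0.23), with a low mean of 39.2 normalized counts. Cldn6, a tight junction protein, fell by 0.86 and 0.94 (SE 0.13 and 0.17), Krt19, a keratin of simple epithelia, by 0.89 in control cells (SE 0.35), and Cited1, a transcriptional coactivator, by 1.13 in paused cells (SE 0.37). Cer1, Apoa1, Apoa4, Apoc2, Fga and Fgb had no row. Foxa2, a factor of visceral and definitive endoderm, was low, at 17.7 and 13.5 normalized counts, and was not called (0.037 and 0.86, SE 0.30 and 0.38).

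**Figure D5:**
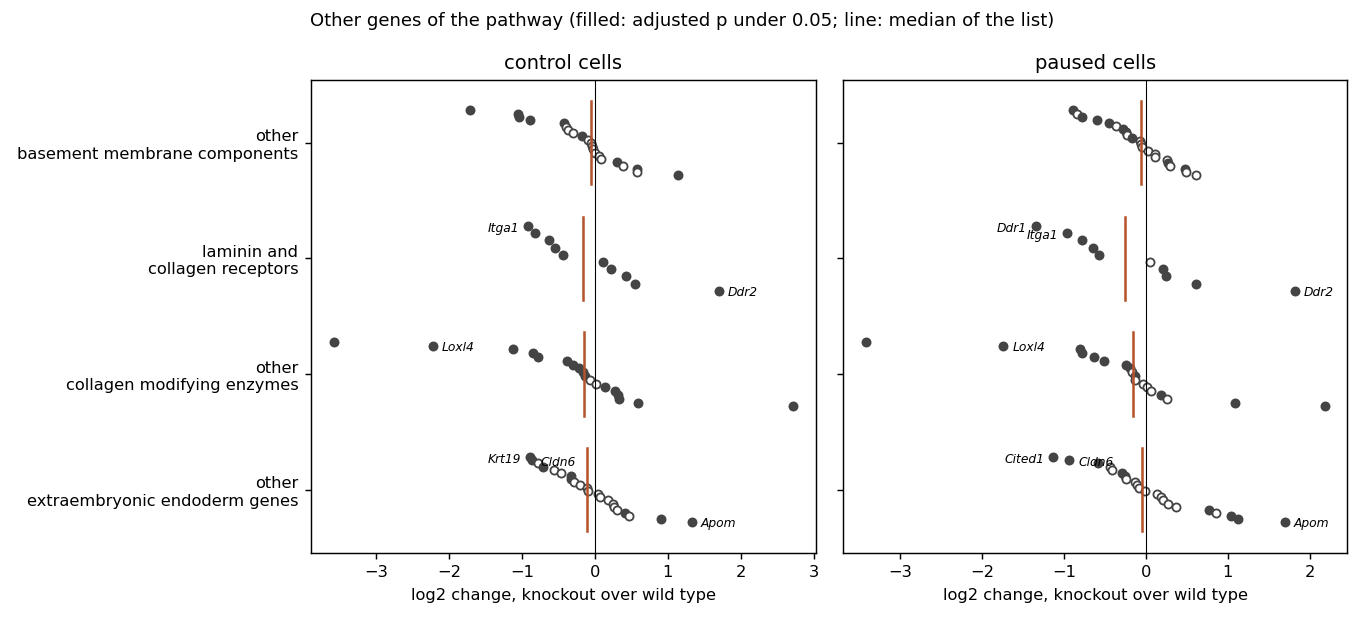
Log2 change, knockout over wild type, of the other genes of the pathway in control cells (left) and paused cells (right), 1 point per gene, filled where called, with a line at the median of each list. In the lower 3 lists, names mark called genes beyond 0.85 with a mean of at least 50 counts, and each list has called genes on both sides of 0.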

How the data were processed

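RNA levels were analysed from 2 deposited tables, 1 per condition. Per the submitters' processing notes, FastQC, Trim Galore, HISAT2, featureCounts and DESeq2 were used with build mm10, with no role, order or version given. Column names, per the file headers, are those of DESeq2 output: a mean normalized count (a signal value averaged by the authors over libraries), a log2 fold change with its standard error on the log2 scale, a statistic or score, a p-value and an adjusted p-value, all deposited per gene symbol. The deposited statistic was checked to equal the change over its standard error, and the deposited adjusted p to lie within 0.852% of the Benjamini-Hochberg value over all genes of the table. In control cells 2 genes had no p. Which libraries and knockout lines entered each comparison is not given in the sources used here. Use of strand in counting is not given in the sources used here, nor is the depth of each library, and the standard errors are the measure of precision.

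The genes and gene lists were chosen with earlier results of these data known. All 36 were looked up by symbol, and those called at an adjusted p under 0.05 in either table are given with full values. From each list of other genes, the 2 called genes with the largest change in each direction and a mean of at least 50 were to be named per table, of which 1 is not reported here. A mean under 50 normalized counts is marked as low. The difference between conditions was the paused minus the control change over the standard error of that difference, with both tables taken as independent, two-sided, with Benjamini-Hochberg adjustment over 19134 genes, and the method was tested on simulated data. Exon lengths were those of GENCODE M21 basic transcripts, as unions of exons. Promoter windows were from RefSeq, GRCm38.p6, the same assembly as mm10. Alternatives were an adjusted p under 0.01, a change of at least 2-fold, a minimum of 5 ppm of the summed mean counts, 2 other scalings and statistics divided by their middle spread. Of these, the scaling to equal summed counts was added after seeing the data. Comparisons of protein sequence were planned and not run. Python 3.11.15, numpy 2.4.6, scipy 1.17.1, pandas 2.3.3 and matplotlib 3.10.9 were used.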

Additional observations from a re-analysis of the deposited data

Results flagged for a closer look

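Cubn was singled out because its Smad2 effect differed between control and paused cells by a test of the difference itself. Its change was 1.16 in control cells and 2.20 in paused cells by the authors' deposited tables, a difference of 1.04 on the log2 scale (SE 0.27, adjusted p 0.0144). Among the 31 genes of the group with a row in both tables it alone passed this test. Its means were 120 and 115 normalized counts, which is under the minimum on abundance in both tables.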

How the results depend on the processing

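No paired analysis was possible because the tables hold no value for a single library, and for the same reason no library could be left out. The calls within each condition fell most with statistics divided by their middle spread. This divides all statistics of a comparison by 1 number and does not test whether the standard errors are too small. It left 2 genes of the group in control cells, both higher (1.48% of all genes were called). In paused cells it left 4, all higher (2.25%), with 0 lower in either condition. No gene then passed for the difference, the count being 0, against 35 over all genes. With a change of at least 2-fold, 9 passed in control cells, 8 higher and 1 lower, and likewise 9 in paused cells, 8 higher and 1 lower. Over all genes 6.98% passed in control cells and 7.1% in paused cells. The minimum on abundance kept 16 genes of the group in control cells, of which 10 were called, 7 higher and 3 lower (51.6% of all genes above it were called), and 15 in paused cells, of which 11 were called, 7 of them higher (53%). It left out 15 and 17 genes, among them Gata4, Gata6, Sox7, Sox17, Hnf4a, Pdgfra and Cubn in both conditions. For the difference it gave 0 higher and 1 lower, Nid1, where 2.93% of the 10958 genes tested were called. At an adjusted p under 0.01 the difference was called for 0 genes of the group, where 0.533% of all genes were called. Equal summed counts gave 2 genes for the difference, of which 1, Nid1, was lower, where 1.54% of all genes were called. Over single genes, 403 of the values under an alternative kept their direction and call, 71 lost the call, 7 gained it and 5 changed sign. Genes left out by the minimum on abundance are not in these counts. Under that minimum the called genes went from 20 to 10 in control cells and from 23 to 11 in paused cells. The changes of sign were all near 0. Hhex in paused cells became 0.044 with the median change set to 0 and 0.032 with equal summed counts. The difference of Lama1 became -0.0053 and -0.019, and P4ha1 in control cells became 0.0011 with equal summed counts. The shifts behind these scalings were -0.053 and -0.047 for the median, and -0.055 and -0.035 for equal sums, in control and paused cells. The shifts for the median are not the medians over all genes, 0.00085 and -0.0016, but those over genes at 5 ppm or more. Equal summed counts was chosen after seeing the data. The depth of the libraries is unknown, so the low genes are limited by their standard errors alone.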

Other observations

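Gata4 and Sox7 lie on mouse chromosome 14, 672 kb apart in GENCODE M21 on GRCm38, and both rose. Of the 6 protein-coding genes between them, 5 had a row in each of the authors' deposited tables. In control cells 0 of these 5 were called higher by the authors' DESeq2 test and 1 was called lower, and in paused cells 1 was higher and 3 were lower. Over all genes 19.5% were higher and 21.9% lower in control cells, against 20.5% and 22% in paused ones, and nothing is read from 5 genes.

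Of the 10 embryonic stem cell markers, 3 were higher and 2 lower in each of the authors' deposited tables, with medians of 0.050 in control and -0.056 in paused cells. This count is near the share of all genes called, 41.4% and 42.6%, and shows nothing particular to the markers. Klf4, a naive pluripotency factor, rose by 0.56 and 0.26 in control and paused cells, per the authors' deposited tables (difference -0.30, SE 0.08, adjusted p 0.0264).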
